A study of Mus musculus with 11 samples.

Results

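The genes described here encode the constitutive proteasome, here in hematopoietic stem cells (HSCs) of the mouse, the rare marrow cells from which all blood lineages descend. They were chosen by symbol: every gene whose single annotated symbol begins with Psma, Psmb, Psmc or Psmd and a digit, without Psmb8, Psmb9, Psmb10 and pseudogenes. The rule found 36 genes among the 22180 that had a probe set assigned to 1 symbol. Psma4 was not analysed here, because its probe sets carry several symbols.

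HSCs were sorted by flow cytometry from mice that had received ATRA followed by polyIC (3 arrays, called ATRA+pIC here and RApIC in the sample names), polyIC alone (pIC, 2 arrays), ATRA alone (3 arrays) or PBS (3 arrays). ATRA is all-trans retinoic acid, an active form of vitamin A. PolyIC is a synthetic double-stranded RNA, sensed by cells as viral, that induces type I interferon, and PBS is the saline control. The sources used here do not give strain, age, dose, time, sorting gate or the number of mice behind an array. Biotin-labelled RNA was read on Affymetrix arrays, and the deposited values were log2 intensities. Precision is limited by the small number of arrays, and the p-values cover only the spread among them, which may be technical.

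The proteasome degrades proteins that carry ubiquitin chains. Its 20S core is a barrel of outer alpha rings, which gate the entrance, and inner beta rings, in which Psmb5, Psmb6 and Psmb7 are the proteolytic subunits. A 19S cap, made of the ATPase ring (Psmc genes) and non-ATPase subunits (Psmd genes), binds ubiquitin chains, removes them, and unfolds and feeds the substrate into the core. Interferon is known to induce Psmb8, Psmb9 and Psmb10, which take the places of Psmb5, Psmb6 and Psmb7 in the immunoproteasome, the form tied to antigen presentation.

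The 36 genes comprised 7 alpha subunits, 8 beta subunits, 6 ATPases, 11 non-ATPase subunits, 3 chaperones that assemble the 19S cap (Psmd5, Psmd9 and Psmd10) and Psmc3ip. Psmc3ip, a partner of recombinases in meiosis, matched by its symbol and is not a proteasome subunit. Psma8 is the testis form of an alpha subunit, and Psmb11 is the form of the catalytic beta subunit found in the thymus. On all 11 arrays 34 of the 36 genes lay above the array median, which ran from 6.19 to 6.28 log2 units. The exceptions were Psma5 and Psmb11, and these were also the members that a filter on the dimmest 40% of genes left out.

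The RefSeq promoter table (GRCm38.p6) listed 29 of the 36 genes, in 31 windows of 250 bases before the start site. The windows of 5 of the 6 members with the largest rise under pIC in the first comparison (Psmc5, Psmd13, Psmc4, Psmc2 and Psmd12) and of the catalytic subunit Psmb5 are shown, each read 5′ to 3′ on the gene's strand, to set genes that moved together side by side. The other one, Psmd3, is not listed in the table, and Psmc2 has 2 windows. Capitals mark matches, on either strand, to 4 motifs that were chosen after the data were seen.
Psmc5, chr11:106255935-106256184, plus strand: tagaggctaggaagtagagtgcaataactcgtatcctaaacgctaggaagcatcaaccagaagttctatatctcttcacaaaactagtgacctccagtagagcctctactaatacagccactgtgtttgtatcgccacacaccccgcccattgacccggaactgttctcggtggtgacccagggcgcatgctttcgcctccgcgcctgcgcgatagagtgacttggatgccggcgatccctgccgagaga
Psmd13, chr7:140882144-140882393, plus strand: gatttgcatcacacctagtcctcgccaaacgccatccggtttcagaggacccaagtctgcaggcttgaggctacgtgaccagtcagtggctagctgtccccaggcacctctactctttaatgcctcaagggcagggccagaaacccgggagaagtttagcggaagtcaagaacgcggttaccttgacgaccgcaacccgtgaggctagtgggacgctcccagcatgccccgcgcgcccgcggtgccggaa
Psmc4, chr7:28050093-28050342, minus strand: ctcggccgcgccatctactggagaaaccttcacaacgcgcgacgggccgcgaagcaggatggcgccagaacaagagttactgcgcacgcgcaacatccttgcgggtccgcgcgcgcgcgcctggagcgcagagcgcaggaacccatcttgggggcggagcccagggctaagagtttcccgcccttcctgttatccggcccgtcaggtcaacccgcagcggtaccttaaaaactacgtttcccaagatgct
Psmc2, chr5:21785025-21785274, plus strand: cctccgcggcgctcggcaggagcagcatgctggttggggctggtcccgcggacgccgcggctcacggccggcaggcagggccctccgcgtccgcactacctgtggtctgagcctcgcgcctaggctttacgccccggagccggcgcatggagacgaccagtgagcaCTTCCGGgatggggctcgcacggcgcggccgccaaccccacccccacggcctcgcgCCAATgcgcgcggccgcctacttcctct
Psmc2, chr5:21786497-21786746, plus strand: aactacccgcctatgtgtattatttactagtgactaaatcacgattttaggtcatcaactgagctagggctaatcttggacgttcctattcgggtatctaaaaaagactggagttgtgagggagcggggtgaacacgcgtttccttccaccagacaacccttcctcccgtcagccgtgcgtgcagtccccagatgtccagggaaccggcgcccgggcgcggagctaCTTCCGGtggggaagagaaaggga
Psmd12, chr11:107479278-107479527, plus strand: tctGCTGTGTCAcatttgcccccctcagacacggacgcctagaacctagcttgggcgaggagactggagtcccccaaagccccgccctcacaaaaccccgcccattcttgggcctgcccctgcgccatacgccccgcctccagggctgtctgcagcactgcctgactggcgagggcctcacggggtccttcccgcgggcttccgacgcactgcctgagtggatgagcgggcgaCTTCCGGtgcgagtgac
Psmb5, chr14:54617996-54618245, minus strand: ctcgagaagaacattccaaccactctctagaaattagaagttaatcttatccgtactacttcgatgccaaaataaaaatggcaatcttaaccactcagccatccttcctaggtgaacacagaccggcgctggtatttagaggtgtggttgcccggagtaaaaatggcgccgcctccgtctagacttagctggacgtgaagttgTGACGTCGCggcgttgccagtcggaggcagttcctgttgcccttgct
The motifs were TGACNNNGC (the core of the antioxidant response element), CCAAT (a box bound by the factor NF-Y), CCGGAAG (a site type of Ets factors) and the core of the interferon-stimulated response element (2 runs of GAAA with 2 bases between them, or the reverse complement). CCGGAAG was in 35.5% of the members' windows and in 6.91% of the 32851 windows in the table. TGACNNNGC was in 16.1% of the members' windows against 10.2% of all windows, CCAAT in 41.9% against 33.8%, and the interferon-stimulated core in 9.68% against 2.98%. A match is a run of letters in these windows, and Psmc5, Psmd13 and Psmc4, which rose strongly, held none of the 4. The 3 members with the interferon-stimulated core were Psmb3, Psmd4 and Psmd9, of which Psmd4 rose with pIC.

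The 11 arrays did not separate cleanly by label. On the first principal component, with 56% of the variance, ATRA+pIC replicates 1, 2 and 3 lay at 35.8, -4.5 and 23.3, the pIC arrays at 35 and 37.8, and the ATRA and PBS arrays between -24.5 and -15.1. ATRA+pIC replicate 2 thus lay nearer to the arrays without pIC than its group, and results that rest on it are given with and without it. All 10 HSC markers measured were above the array median on all 11 arrays, against 1 of 13 T- and NK-cell, 3 of 12 macrophage, 1 of 8 B-cell and 1 of 10 neutrophil markers. Of erythroid markers, 7 of 8 lay above the array median throughout, and of megakaryocyte markers, 6 of 8. A marker that is high on only some arrays is not in these counts. Against the PBS mean, the T- and NK-cell markers had medians of 1.10, 0.03 and 1.08 with ATRA+pIC, and 0.39 and 1.16 with pIC.

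The first comparison, pIC against PBS, asked how an interferon-inducing signal changes HSCs. A limma model of all 11 arrays and 22180 genes gave log2 differences of group means ± SE, and calls were made where the p adjusted by Benjamini-Hochberg was under 0.05. With pIC, 26 of the 36 genes rose and 0 fell, while 8.94% of all genes rose and 5.75% fell. The median difference of the members was 0.45 on the log2 scale (1.37-fold), against 0.00 for all genes. The rises were modest, from 0.30 to 0.87, with adjusted p from 0.00245 to 0.0444. Both pIC arrays lay above all PBS arrays for 32 members (23.4% of all genes), and below them for 1 member, Psmb11 (19.6% of all genes).

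**Figure D1:**
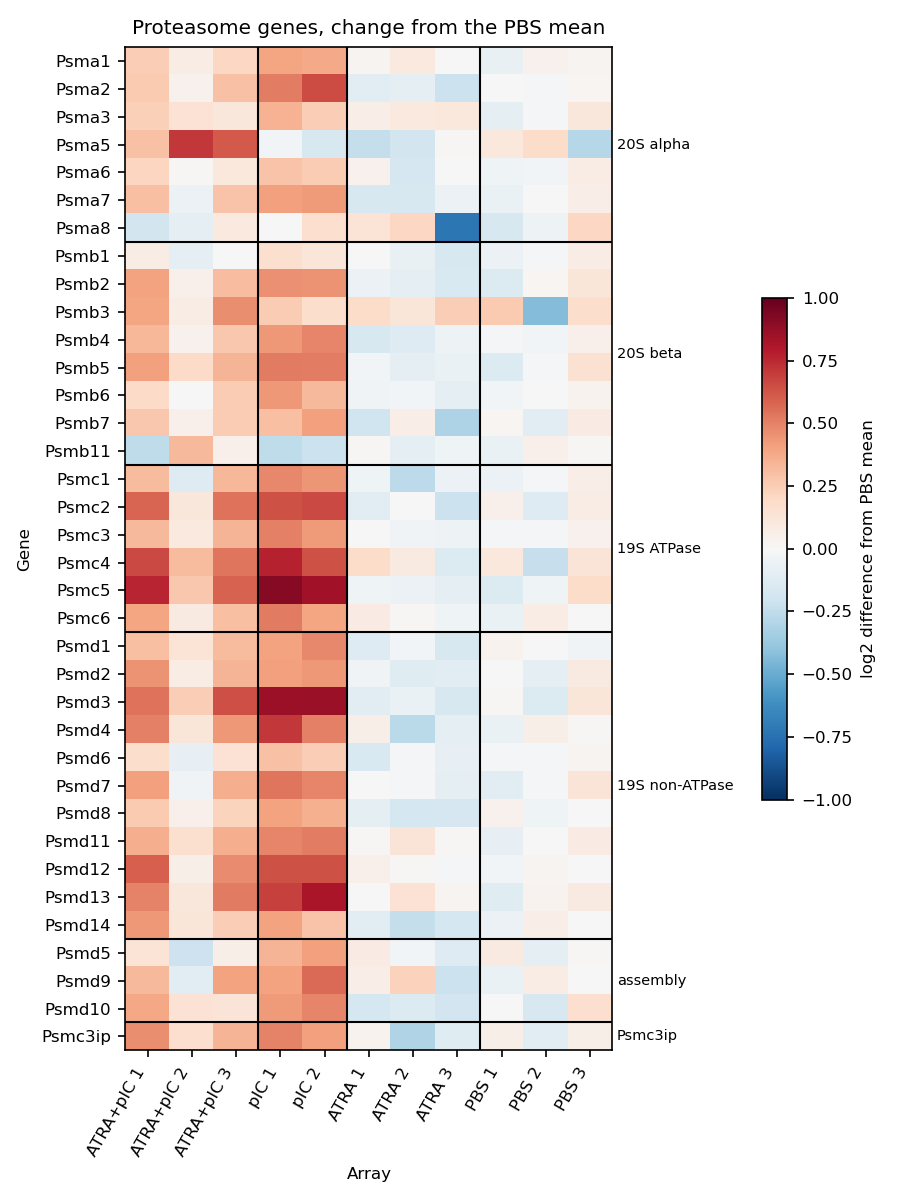
Log2 difference of each of the 36 genes (rows, by role) from its PBS mean on each array (columns), with red for higher and blue for lower. The pIC arrays are red in nearly all rows, in most rows ATRA+pIC replicate 2 is paler than replicates 1 and 3 (not in Psma5 or Psmb11), and the ATRA and PBS arrays are near 0 in most rows.

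Psmc5, an ATPase of the 19S ring, rose by 0.87 ± 0.14 (1.83-fold, adjusted p = 0.00378), the largest difference among the members. Its log2 intensity was 10.86, 10.37 and 10.69 on the ATRA+pIC arrays, 11.01 and 10.94 on the pIC arrays, 10.05, 10.04 and 10.01 on the ATRA arrays, and 9.96, 10.05 and 10.28 on the PBS arrays. Every array with pIC lay above every array without it. Psmd3, a subunit of the lid that surrounds the deubiquitinase, was at 10.34, 10.04 and 10.44 with ATRA+pIC, 10.65 and 10.66 with pIC, 9.69, 9.73 and 9.64 with ATRA, and 9.81, 9.66 and 9.92 with PBS. It rose by 0.86 ± 0.12 (adjusted p = 0.00245), again with no overlap between arrays with and without pIC.

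All 6 ATPases of the 19S ring rose, with a median of 0.56 (1.47-fold). Psmc4 was at 10.59, 10.25 and 10.47 on the ATRA+pIC arrays, 10.70 and 10.57 on the pIC arrays, 10.12, 10.02 and 9.80 on the ATRA arrays, and 10.04, 9.70 and 10.06 on the PBS arrays, and it rose by 0.71 ± 0.14 (adjusted p = 0.0104). Psmc2 was at 10.13, 9.66 and 10.09 with ATRA+pIC, 10.18 and 10.21 with pIC, 9.43, 9.54 and 9.33 with ATRA, and 9.60, 9.42 and 9.62 with PBS, and it rose by 0.64 ± 0.14 (adjusted p = 0.0125). For Psmc2, ATRA+pIC replicate 2 was only just above the highest PBS array. Psmc1, Psmc3 and Psmc6 differed by 0.45 to 0.47, so the ring did not hold a member without a call. The call of Psmc1 was lost when any 1 of the PBS or pIC arrays, or ATRA replicate 1 or 3, was left out.

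Of the 11 non-ATPase subunits, 10 rose, with a median of 0.50 (1.41-fold). Psmd13, a lid subunit, was at 9.13, 8.75 and 9.15 with ATRA+pIC, 9.32 and 9.45 with pIC, 8.64, 8.78 and 8.66 with ATRA, and 8.51, 8.67 and 8.72 with PBS, and it rose by 0.75 ± 0.13 (adjusted p = 0.0049). Psmd12, a scaffold subunit of the lid, was at 10.30, 9.76 and 10.17 with ATRA+pIC, 10.34 on both pIC arrays, 9.75, 9.71 and 9.69 with ATRA, and 9.67, 9.73 and 9.70 with PBS, and it rose by 0.64 ± 0.13 (adjusted p = 0.0109). In both genes the pIC arrays stood clear of all ATRA and PBS arrays, whereas ATRA+pIC replicate 2 was beside them. The ubiquitin receptor Psmd4 rose by 0.61 ± 0.13 (adjusted p = 0.0143), and the deubiquitinase Psmd14, which cuts chains from substrates, rose by 0.34 ± 0.10 (adjusted p = 0.0444). Psmd14 kept its call in 2 of the 11 fits that left out 1 array. Psmd1 and Psmd2, the large scaffold subunits of the base, rose by 0.45 ± 0.09 and 0.42 ± 0.11 (adjusted p = 0.00811 and 0.0275). Psmd6 was the subunit without a call, at 0.27 ± 0.09 (adjusted p = 0.0739).

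In the 20S core, 4 of 7 alpha and 4 of 8 beta subunits rose, with medians of 0.30 and 0.37. Among alpha subunits Psma2 rose most, by 0.58 ± 0.10 (adjusted p = 0.00416), followed by Psma7 at 0.42, Psma1 at 0.39 and Psma3 at 0.30. Psma3 kept its call in 3 of the 11 fits that left out 1 array. Psma6 differed by 0.27 ± 0.09 (adjusted p = 0.0809), and the dim Psma5 and the testis form Psma8 differed by -0.10 ± 0.16 and 0.08 ± 0.24. Among beta subunits Psmb2 and Psmb4, structural subunits of the ring, each rose by 0.46 (adjusted p = 0.023 and 0.0116). Psmb1 differed by 0.14 ± 0.09, Psmb3 by 0.22 ± 0.19 and Psmb11 by -0.24 ± 0.14, none of them called.

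Of the 3 catalytic subunits, Psmb5 and Psmb6 rose. Psmb5, the chymotrypsin-like subunit, was at 12.00, 11.78 and 11.93 with ATRA+pIC, 12.11 and 12.10 with pIC, 11.56, 11.50 and 11.52 with ATRA, and 11.45, 11.58 and 11.74 with PBS, and it rose by 0.51 ± 0.10 with pIC (adjusted p = 0.00837). Psmb6, the caspase-like subunit, was at 9.97, 9.77 and 10.03 with ATRA+pIC, 10.21 and 10.10 with pIC, 9.74, 9.75 and 9.69 with ATRA, and 9.75, 9.77 and 9.81 with PBS, and it rose by 0.38 ± 0.09 (adjusted p = 0.0205). Psmb7, the trypsin-like subunit, was at 11.09, 10.87 and 11.07 with ATRA+pIC, 11.12 and 11.23 with pIC, 10.62, 10.88 and 10.51 with ATRA, and 10.84, 10.71 and 10.90 with PBS. The pIC arrays of Psmb7 were above all PBS arrays, but the difference of 0.36 ± 0.12 missed the threshold (adjusted p = 0.0696).

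Their interferon-induced counterparts rose as well. Psmb8 was at 10.45, 10.09 and 10.34 with ATRA+pIC, 10.49 on both pIC arrays, 9.66, 9.79 and 9.70 with ATRA, and 9.70, 9.74 and 9.76 with PBS, and it rose by 0.75 ± 0.10 (adjusted p = 0.00243). Psmb9 was at 12.02, 11.47 and 11.88 with ATRA+pIC, 12.10 and 12.09 with pIC, 11.06, 11.03 and 11.08 with ATRA, and 11.10, 11.12 and 11.31 with PBS, and it rose by 0.91 ± 0.14 (adjusted p = 0.00338). Psmb10 was at 12.40, 11.81 and 12.32 with ATRA+pIC, 12.61 and 12.49 with pIC, 11.41, 11.46 and 11.52 with ATRA, and 11.38, 11.48 and 11.62 with PBS, and it rose by 1.06 ± 0.15 (adjusted p = 0.00297). In all 3 genes every array with pIC lay above every array without it.

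Set against the PBS mean, the induced gene of each pair had the larger change on every array with pIC. Psmb8 exceeded Psmb5 in change by 0.30, 0.16 and 0.27 on the ATRA+pIC arrays and by 0.23 and 0.25 on the pIC arrays. Psmb9 exceeded Psmb6 by 0.65, 0.30 and 0.44 with ATRA+pIC and by 0.49 and 0.58 with pIC. Psmb10 exceeded Psmb7 by 0.64, 0.26 and 0.57 with ATRA+pIC and by 0.81 and 0.58 with pIC. For Psmb8 and Psmb5 the difference was -0.04, 0.14 and 0.03 with ATRA and 0.11, 0.02 and -0.12 with PBS, and for Psmb9 and Psmb6 it was -0.08, -0.13 and -0.01 with ATRA and -0.05, -0.05 and 0.10 with PBS. In both of these pairs every array with pIC lay above every array without it. For Psmb10 and Psmb7 it was 0.12, -0.09 and 0.33 with ATRA and -0.14, 0.10 and 0.04 with PBS, so ATRA replicate 3 lay above ATRA+pIC replicate 2. The differences within pairs were not tested.

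**Figure D2:**
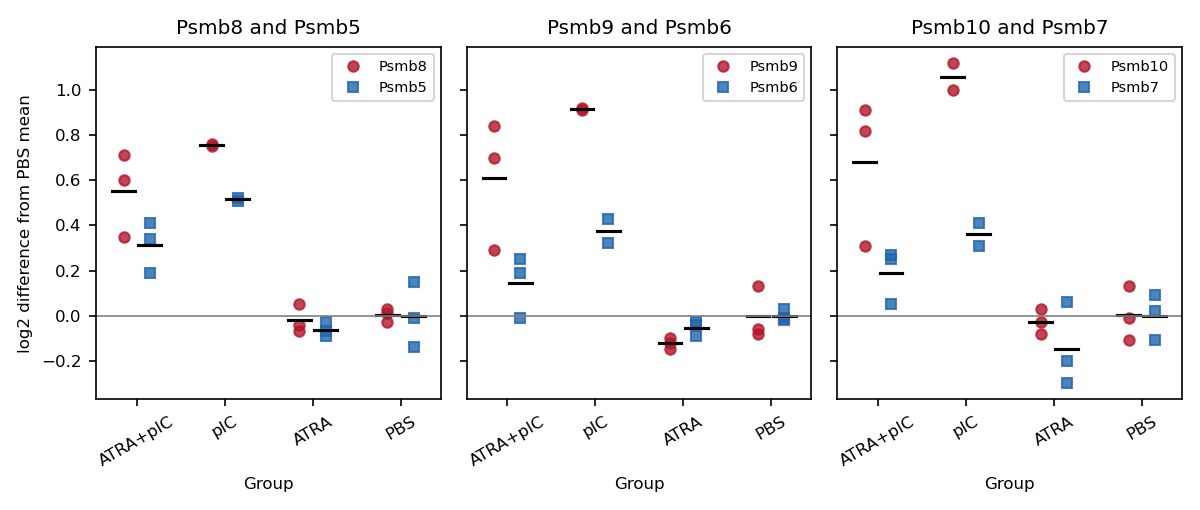
Log2 difference from the PBS mean (vertical axis) of each induced catalytic subunit (red circles) and its constitutive counterpart (blue squares) on every array, by group, with black bars at group means. In each pair the red points of ATRA+pIC and pIC lie above the blue ones of the same array. With ATRA or PBS most points are near 0, but Psmb7 is at -0.20, 0.06 and -0.30 on the ATRA arrays.

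Of the 3 assembly chaperones, Psmd10 rose by 0.46 ± 0.11 (adjusted p = 0.0208), while Psmd9 differed by 0.48 ± 0.16 (adjusted p = 0.0713) and Psmd5 by 0.37 ± 0.11 (adjusted p = 0.0512). Psmc3ip, which is no subunit, rose by 0.45 ± 0.12 (adjusted p = 0.0301), a difference as large as the members' median.

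These calls depended on single arrays, above all on the pIC group of 2. The number of members that rose was 2 without pIC replicate 2 (1.77% of all genes rose in that fit) and 6 without pIC replicate 1 (2.51%), where the lone array is assumed to vary like the other groups. It was 16 without PBS replicate 1 (5.67% of all genes) or PBS replicate 2 (5.53%). Psmc5 and Psmd3 kept their call in all 11 fits that left out 1 array, and the median stayed between 0.43 and 0.47. With the dimmest 40% of genes left out, 31 of the 34 members kept rose, where 17.7% of the genes kept rose.

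The second comparison, ATRA+pIC against ATRA, asked for the same change on the background of ATRA, with other arrays on both sides. Of the 36 genes, 14 rose and 0 fell, beside 3.5% of all genes that rose and 3.71% that fell. The median was 0.32 (1.25-fold) against 0.00 for all genes. All 36 differences were positive, though 1 was negative in the fit without ATRA+pIC replicate 2. The ATRA+pIC arrays lay above all ATRA arrays for 22 members (11.7% of all genes). Rises ran from 0.33 to 0.67, with adjusted p from 0.0116 to 0.0472.

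**Figure D3:**
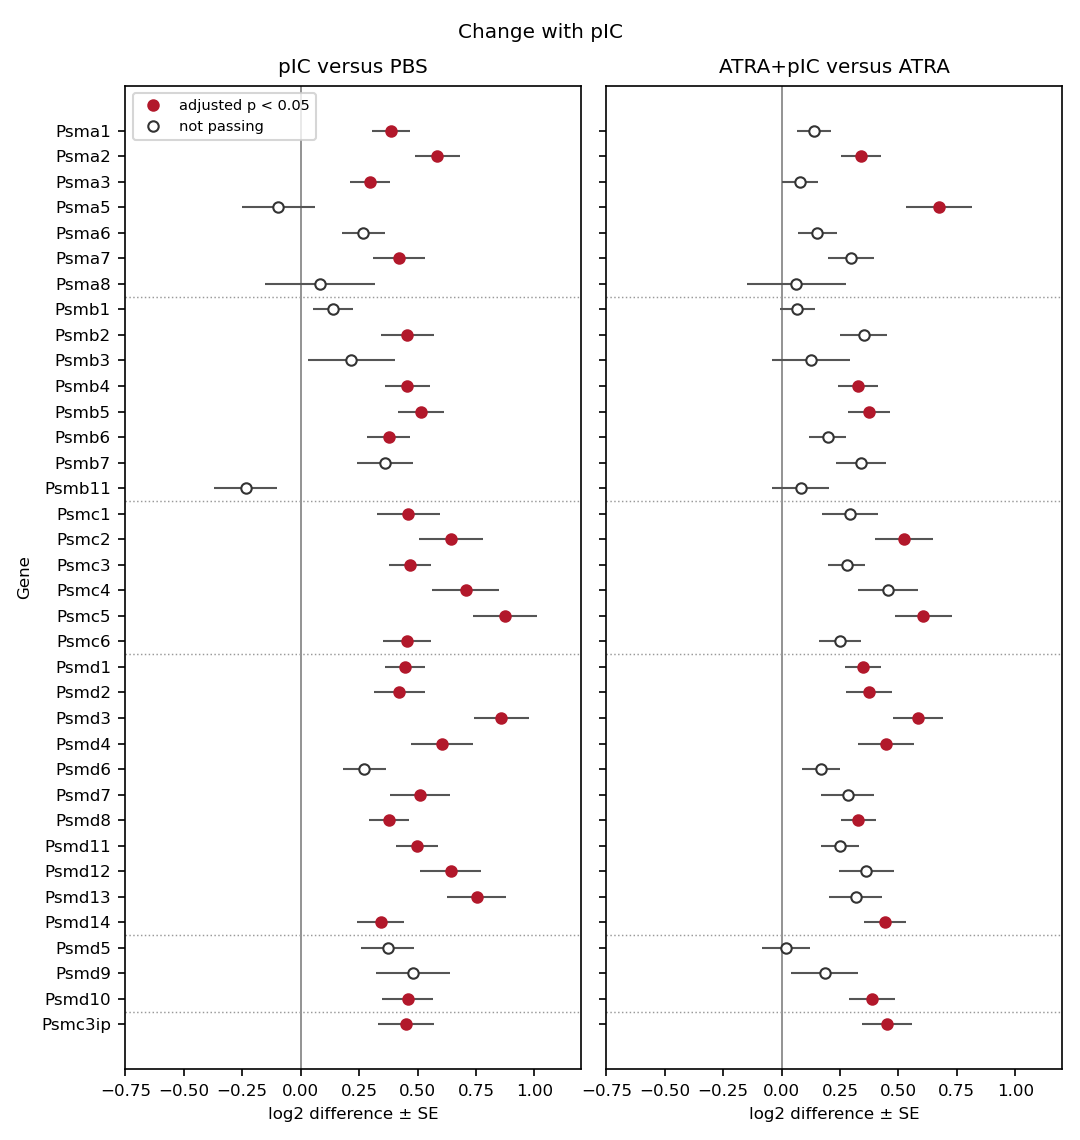
Log2 difference ± SE of each gene, grouped by role, for pIC over PBS (left) and ATRA+pIC over ATRA (right), with filled red points for adjusted p under 0.05 and open points for the rest. On the left 26 points are filled and on the right 14, and all but Psma5 and Psmb11 on the left lie right of 0.

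Psmc5 rose by 0.61 ± 0.12 (adjusted p = 0.0174), Psmd3 by 0.58 ± 0.11 (adjusted p = 0.0116) and Psmc2 by 0.52 ± 0.12 (adjusted p = 0.03), with the arrays listed for the first comparison free of overlap in each. Psmd4 was at 9.21, 8.83 and 9.14 with ATRA+pIC, 9.42 and 9.21 with pIC, 8.77, 8.44 and 8.62 with ATRA, and 8.64, 8.77 and 8.72 with PBS, and it rose by 0.45 ± 0.12 over ATRA (adjusted p = 0.0472). Psmc3ip was at 7.98, 7.68 and 7.85 with ATRA+pIC, 8.01 and 7.92 with pIC, 7.55, 7.21 and 7.39 with ATRA, and 7.57, 7.40 and 7.57 with PBS, and it rose by 0.45 ± 0.11 (adjusted p = 0.0311). By role, 2 of 6 ATPases (median 0.37), 6 of 11 non-ATPase subunits (median 0.35), 2 of 8 beta subunits (median 0.26) and 2 of 7 alpha subunits (median 0.15) rose, beside 3.5% of all genes. Without ATRA+pIC replicate 2, 6 of 6 ATPases (median 0.50) and 10 of 11 non-ATPase subunits (median 0.45) rose. In that fit 5 of 8 beta subunits (median 0.34) and 3 of 7 alpha subunits (median 0.20) rose, beside 6.98% of all genes. The deubiquitinase Psmd14 rose by 0.44 ± 0.09 (adjusted p = 0.0173) and the assembly chaperone Psmd10 by 0.39 ± 0.10 (adjusted p = 0.0405). Psmb5 was the called catalytic subunit, at 0.37 ± 0.09 (adjusted p = 0.0308), while Psmb6 differed by 0.20 ± 0.08 (adjusted p = 0.187) and Psmb7 by 0.34 ± 0.11 (adjusted p = 0.0846). Psmb8, Psmb9 and Psmb10 rose by 0.57 ± 0.09, 0.73 ± 0.12 and 0.71 ± 0.14 (adjusted p = 0.00696, 0.00878 and 0.015).

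Psma5, an alpha subunit, had the largest difference of this comparison, and it stood apart from the others. It was at 5.35, 5.76 and 5.67 with ATRA+pIC, 5.03 and 4.90 with pIC, 4.82, 4.87 and 5.07 with ATRA, and 5.16, 5.24 and 4.77 with PBS, and it rose by 0.67 ± 0.14 over ATRA (adjusted p = 0.0195). Here ATRA+pIC replicate 2 was the highest array rather than the lowest of its group, and the pIC arrays lay among the ATRA and PBS arrays. The gene's other probe set, also dim, differed by 0.04 ± 0.13 (adjusted p = 0.914 with each probe set tested on its own), so the rise of Psma5 was not shared by it. Psmc2 had a second, dimmer probe set too, which differed by 0.46 ± 0.15 over ATRA (adjusted p = 0.0915) and rose by 1.65 ± 0.16 with pIC over PBS (adjusted p = 0.000709). That probe set of Psmc2 was at 7.61, 7.81 and 7.55 with ATRA+pIC, 8.11 and 8.08 with pIC, 6.93, 7.28 and 7.39 with ATRA, and 6.15, 6.60 and 6.57 with PBS. Its ATRA arrays lay above all PBS arrays, a difference of 0.76 ± 0.15 (adjusted p = 0.186), and its interaction was -1.20 ± 0.22 (adjusted p = 0.628), where the probe set used for Psmc2 gave -0.11 ± 0.12 and -0.12 ± 0.18.

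The members called with pIC and those called with ATRA+pIC were largely nested. Of the genes that rose in either comparison, 13 rose in both, which is 50% of the 26 called over PBS and 92.9% of the 14 called over ATRA. Over all genes 629 rose in both, 31.7% of the 1984 and 81% of the 777. The one member called over ATRA alone was Psma5.

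The result over ATRA differed with and without ATRA+pIC replicate 2. Against their PBS means the 36 genes had a median of 0.33, 0.08 and 0.31 on ATRA+pIC replicates 1, 2 and 3, 0.43 on both pIC arrays, -0.02, -0.05 and -0.09 on the ATRA arrays, and -0.04, -0.02 and 0.07 on the PBS arrays. On ATRA+pIC replicates 1, 2 and 3, 33, 18 and 32 members lay above all 6 arrays without pIC (20.9%, 17.9% and 21.4% of all genes), and on each pIC array 32 did (25.9% and 26.7%). Without ATRA+pIC replicate 2, 26 members rose over ATRA, where 6.98% of all genes rose, with a median of 0.41. For 32 members the arrays did not overlap (20.5% of all genes).

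Other arrays moved the count over ATRA as well. It was 0 without ATRA+pIC replicate 3 (1.04% of all genes rose in that fit), and 2 without ATRA+pIC replicate 1 (1.37%), ATRA replicate 2 (1.49%) or ATRA replicate 3 (1.68%). It was 3 without ATRA replicate 1 (1.44%), and 9 without PBS replicate 1 (2.99%) or either pIC replicate (2.75% each). No member kept its call in all 11 of these fits, and Psmd3 kept it in 10, with an adjusted p of 0.0523 without ATRA+pIC replicate 3. In a fit of only the ATRA+pIC and ATRA arrays 0 members rose (0.663% of all genes), and with array weights 27 did (10.4%). With the dimmest 40% of genes left out, 16 of 34 members rose (7.84% of the genes kept).

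**Figure D4:**
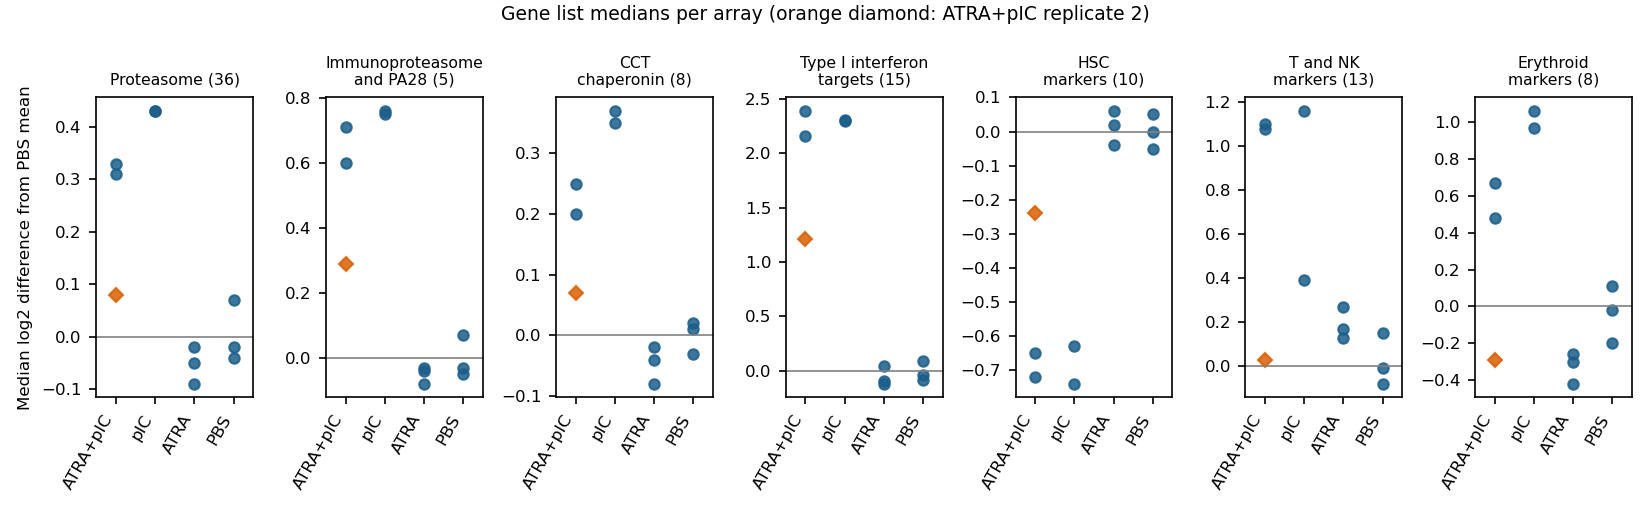
Median log2 difference from the PBS mean (vertical axes, each with its own scale) of 7 gene lists on every array, by group, with ATRA+pIC replicate 2 as an orange diamond and the number of genes in brackets. The proteasome median of that array is 0.08, against 0.33 and 0.31 on replicates 1 and 3, and its interferon, T- and NK-cell and erythroid medians are likewise the lowest of its group.

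Some other lists also changed across these arrays, not all in step with the proteasome genes. With pIC over PBS, the medians of macrophage, megakaryocyte, B-cell and neutrophil markers were -0.08, -0.23, 0.08 and -0.09. Of these, 1 of 12 macrophage and 3 of 8 megakaryocyte markers rose (8.94% of all genes), and 2 of 8 megakaryocyte markers fell (5.75%). Differences ran from -0.72 to 4.34 for macrophage markers and from -0.78 to 1.10 for megakaryocyte markers. No B-cell or neutrophil marker was called. Relative to the PBS mean, 15 type I interferon targets had medians of 2.39, 1.21 and 2.16 on ATRA+pIC replicates 1, 2 and 3, 2.31 and 2.30 on the pIC arrays, and between -0.12 and 0.09 without pIC. T- and NK-cell markers stood at 1.10, 0.03 and 1.08 on the ATRA+pIC arrays and at 0.39 and 1.16 on the pIC arrays, against 0.13 to 0.27 with ATRA and -0.08 to 0.15 with PBS. Their summed linear intensity was 1481 to 4948 with ATRA+pIC, 2568 to 3774 with pIC, 1139 to 1449 with ATRA and 1048 to 1418 with PBS. Of these 13 markers 2 rose with pIC over PBS (8.94% of all genes) and 1 rose with ATRA+pIC over ATRA (3.5%). Without ATRA+pIC replicate 2 the counts were 8 and 10 (10.8% and 6.98% of all genes).

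Erythroid markers stood at 0.67, -0.29 and 0.48 on the ATRA+pIC arrays and at 0.97 and 1.06 on the pIC arrays, against -0.42 to -0.26 with ATRA and -0.20 to 0.11 with PBS. Their summed linear intensity was 4825 to 9667 with ATRA+pIC, 11042 to 12302 with pIC, 5946 to 6731 with ATRA and 6662 to 7419 with PBS. Of these 8 markers, 4 rose with pIC over PBS (8.94% of all genes) and 1 with ATRA+pIC over ATRA (3.5%). Without ATRA+pIC replicate 2 the counts were 6 and 5 (10.8% and 6.98% of all genes). HSC markers moved the other way: 8 of 10 fell with pIC over PBS (5.75% of all genes) and 5 of 10 with ATRA+pIC over ATRA (3.71%). Without ATRA+pIC replicate 2, 9 and 8 of these markers fell, where 1667 and 1665 of all 22180 genes did. In bulk RNA of sorted cells, a change in the share of a cell type and a change of RNA per cell cannot be told apart, and the part of these cell types in the proteasome result was not tested.

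ATRA alone left no call among the proteasome genes. Against PBS, limma called 0 of 36 members, beside 0.00451% of all genes that rose and 0 that fell, and no member had an unadjusted p under 0.05 (6.80% of all genes). The median was -0.08, and 27 of 36 differences were negative. The ATRA arrays lay below all PBS arrays for 6 members (6.08% of all genes) and above them for 0 (6.61%), counted on 1 probe set a gene, whereas in the second probe set of Psmc2 the ATRA arrays were above. The 95% intervals of the members together spanned -0.59 to 0.55, ends set by the members with the widest intervals. The SE of a member was 0.10 at the median and 0.21 at most, so a typical interval was narrower than that span.

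The 3 members with the smallest p were all at lower values with ATRA. Psmd8, a lid subunit, was at 10.61, 10.53 and 10.54 with ATRA and 10.75, 10.66 and 10.71 with PBS, a difference of -0.15 ± 0.08 (adjusted p = 0.767). Psmd14, the deubiquitinase, was at 9.76, 9.63 and 9.69 with ATRA and 9.81, 9.93 and 9.86 with PBS, a difference of -0.18 ± 0.09 (adjusted p = 0.775). Psmd10 was at 9.26, 9.30 and 9.24 with ATRA and 9.43, 9.27 and 9.60 with PBS, a difference of -0.17 ± 0.10 (adjusted p = 0.812). The groups did not overlap in Psmd8 and Psmd14, and they did in Psmd10. Psmb5, Psmb6 and Psmb7 differed by -0.06, -0.05 and -0.15 between ATRA and PBS, with adjusted p of 0.95, 0.953 and 0.871.

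**Figure D5:**
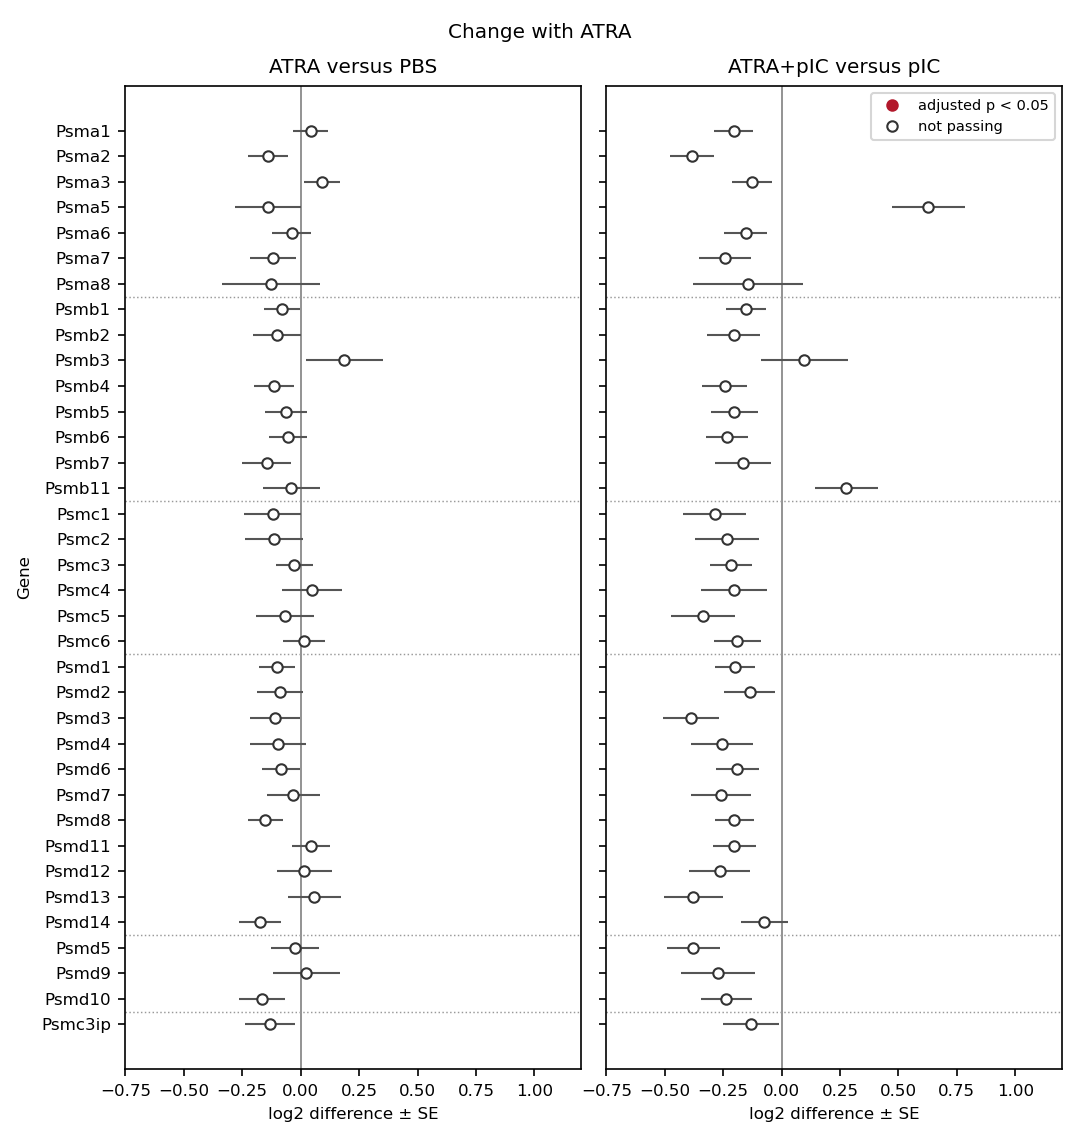
Log2 difference ± SE of each gene, grouped by role, for ATRA over PBS (left) and ATRA+pIC over pIC (right), all open because no adjusted p was under 0.05. On the left the points scatter within 0.19 of 0, and on the right 33 of 36 lie left of 0 while Psma5 lies at 0.63.

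Between ATRA+pIC and pIC, limma likewise called 0 members of 36, and 0 of the 22180 genes. The median was -0.20, against -0.02 for all genes, and 33 differences were negative. An unadjusted p under 0.05 was reached by 13 members (10.1% of all genes). The ATRA+pIC arrays lay below both pIC arrays for 26 members (17.4% of all genes) and above them for Psma5 (9.74%). Without ATRA+pIC replicate 2 the median was -0.12, 5 members had an unadjusted p under 0.05 (7.75% of all genes in that fit), and 26 members lay below both pIC arrays (24.1% of all genes).

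Psma2 had the smallest p, with 10.21, 9.99 and 10.24 on the ATRA+pIC arrays and 10.46 and 10.60 on the pIC arrays, against 9.84, 9.85 and 9.73 with ATRA and 9.94, 9.93 and 9.97 with PBS. The difference of ATRA+pIC from pIC was -0.38 ± 0.10 (adjusted p = 0.273). Psma5 differed by 0.63 ± 0.16 (adjusted p = 0.277), with the values given above. Psmd5, an assembly chaperone, was at 10.01, 9.66 and 9.93 with ATRA+pIC, 10.21 and 10.28 with pIC, 9.95, 9.84 and 9.74 with ATRA, and 9.96, 9.77 and 9.88 with PBS, a difference of -0.38 ± 0.11 (adjusted p = 0.339). For Psma2 the ATRA+pIC arrays were between the pIC arrays and the rest, and for Psmd5 they spanned the arrays without pIC.

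Whether pIC changed the proteasome genes by a different amount after ATRA was tested as an interaction, the difference ATRA+pIC minus ATRA less the difference pIC minus PBS. Of the 36 genes 0 were called, and 0 of all genes, and 4 members had an unadjusted p under 0.05 (6.27% of all genes). The median was -0.14 and 32 values were negative, and without ATRA+pIC replicate 2 the median was -0.04 and 26 values were negative. The smallest p-values were those of Psma5 at 0.77 ± 0.21 (adjusted p = 0.742), Psmd13 at -0.44 ± 0.17 (adjusted p = 0.786) and Psmd5 at -0.35 ± 0.15 (adjusted p = 0.792). The 95% intervals of the members together ran from -0.81 to 1.24, ends set by the widest intervals, with a median SE of 0.15. With 0 calls, the different numbers of calls over PBS and over ATRA were not shown to be a difference between the backgrounds.

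Genes that work with the proteasome are set beside it by list. Over all genes, 8.94% rose with pIC over PBS and 3.5% with ATRA+pIC over ATRA. Of the 5 immunoproteasome and PA28 genes, 4 rose with pIC over PBS (median 0.75) and 4 with ATRA+pIC over ATRA (median 0.57). Psme1, a subunit of the PA28 activator, rose by 0.72 ± 0.11 and 0.41 ± 0.10 (adjusted p = 0.00378 and 0.0349), while its partner Psme2 differed by 0.09 ± 0.09 and 0.08 ± 0.08 and was not called in either. Of 8 genes of other activators, the inhibitor Psmf1 and 20S assembly, 7 rose with pIC (median 0.47) and 1 with ATRA+pIC over ATRA (median 0.20). Without ATRA+pIC replicate 2, 4 of these 8 rose over ATRA (median 0.28), beside 6.98% of all genes. Psmg3, a chaperone that builds the 20S core, was called in both, at 0.72 ± 0.12 and 0.64 ± 0.11 (adjusted p = 0.00453 and 0.008). Pomp, the maturation factor of the core, rose by 0.49 ± 0.09, the nuclear activator Psme3 by 0.46 ± 0.09 and the chaperone Psmg1 by 0.45 ± 0.10 with pIC over PBS (adjusted p = 0.00746, 0.00894 and 0.0149).

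Genes that bring substrates to the proteasome or control its expression were counted in the same way, again beside 8.94% and 3.5% of all genes. Of 9 proteasome-bound ubiquitin receptors and deubiquitinases, 4 rose with pIC over PBS (median 0.22): the shuttle factor Ubqln4 by 0.41 ± 0.09, the deubiquitinase Uchl5 by 0.52 ± 0.11, the shuttle factor Rad23b by 0.37 ± 0.08 and the deubiquitinase Usp14 by 0.43 ± 0.11 (adjusted p = 0.0115, 0.0123, 0.0153 and 0.0248). With ATRA+pIC over ATRA, Uchl5 was called, at 0.39 ± 0.10 (adjusted p = 0.0393). Without ATRA+pIC replicate 2, 2 of the 9 rose over ATRA (6.98% of all genes). Of the 4 genes for transcription factors of proteasome genes and their processing, Nfe2l2, the factor of the oxidative stress response, rose by 0.32 ± 0.09 with pIC (adjusted p = 0.0319). Nfe2l1, known to drive proteasome genes when the proteasome is inhibited, differed by 0.10 ± 0.09 (adjusted p = 0.521), and 0 of the 4 were called over ATRA. Of 5 ubiquitin, E1 and p97 genes, Nploc4, a p97 cofactor, rose with pIC by 0.38 ± 0.09 (adjusted p = 0.0198), while p97 itself, Vcp, differed by 0.20 ± 0.08 (adjusted p = 0.121).

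The cytosolic CCT chaperonin, a folding machine of 8 genes outside the degradation pathway, was set beside the proteasome as another large complex. Of its genes 6 rose with pIC over PBS (median 0.37) and 2, Cct3 and Cct7, rose with ATRA+pIC over ATRA (median 0.19). Over all genes 8.94% and 3.5% rose. Without ATRA+pIC replicate 2, 3 of the 8 rose over ATRA (median 0.24), beside 6.98% of all genes. Cct3 rose by 0.53 ± 0.09 and 0.43 ± 0.08 (adjusted p = 0.00575 and 0.0153). Of the 15 type I interferon targets 14 rose in each comparison, with medians of 2.31 and 2.03, so the proteasome genes' median difference was far smaller than theirs. Irf7, a transcription factor of the interferon response, rose by 3.42 ± 0.22 and 3.27 ± 0.19 (adjusted p = 0.000159 and 0.000106).

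The calls of these related genes were also read with each array left out. With pIC over PBS, Psmb8, Psmb9, Psmb10, Psme1 and Irf7 kept their call in all 11 fits. Psmg3 and Cct3 lost it without pIC replicate 2, Pomp without pIC replicate 1, and Psme3, Psmg1, Ubqln4, Uchl5 and Rad23b without either pIC array. Usp14 lost it without either pIC array, PBS replicate 1 or PBS replicate 2, Nfe2l2 without either pIC array, PBS replicate 2 or PBS replicate 3, and Nploc4 without either pIC array or PBS replicate 2. With ATRA+pIC over ATRA, Psmb8, Psmb9, Psmg3 and Irf7 kept their call in all 11 fits, Cct7 in 8, Cct3 and Psmb10 in 7, and Psme1 and Uchl5 in 2. Psmb10 lost it without ATRA+pIC replicate 1, ATRA+pIC replicate 3, ATRA replicate 1 or ATRA replicate 2.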

How the data were processed

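RNA of 11 sorted samples was measured on Affymetrix arrays. For 41345 probe sets the authors deposited log2 intensities; oligo 1.36.1, RMA and limma 3.28.20 are named, without role or order, per the submitters' processing notes. The platform table pairs 23521 probe sets with 1 symbol, 1814 with several, and does not list 16010. Each of 22180 genes was represented by its brightest probe set (mean over 11 arrays), and 1082 had more than 1. limma 3.58.1 in R 4.3.3 fitted 4 group means (7 residual degrees of freedom, 10.72 moderated), with 5 contrasts and two-sided tests adjusted over all genes. The model was tested on simulated data with normal noise and added shifts larger than the members' called differences. That test does not cover differences of the members' size. Members and lists were chosen with earlier results of these data known. All members may be named. Values per array are given for the catalytic subunits and their induced counterparts. They are also given for the 6 largest called rises per contrast, or the 3 smallest p-values where fewer than 3 were called. Other genes of the related lists are named without values per array. Alternatives were array weights, a filter on the dimmest 40%, a replicate block, each array left out, cyclic loess, the mean of probe sets, each probe set on its own, only the groups compared, and a trend with robust prior. Figures used Python 3.11.15, pandas 2.3.3, numpy 2.4.6 and matplotlib 3.10.9.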

Additional observations from a re-analysis of the deposited data

How the results depend on the processing

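The share of all genes that rose in the same fit stands in brackets. With pIC over PBS, 24 members rose with the replicate number as a block (7.78%), 23 with cyclic loess scaling (7.93%), 26 with the mean of probe sets (8.75%), each probe set on its own (8.84%) or only the groups compared (7.96%), 29 with array weights (11.1%), 30 with a trend and robust prior (9.94%), and 31 with the dimmest 40% of genes left out (17.7%). With ATRA+pIC over ATRA, 14 rose in the fit reported (3.5%), 11 with the block (2.98%), 12 with cyclic loess (3.59%), 14 with the mean of probe sets (3.42%) or each on its own (3.41%), 16 with the dim filter (7.84%), 20 with a trend and robust prior (4.4%), 27 with array weights (10.4%) and 0 with only the groups compared (0.663%). The cause of these differences was not tested; the last fit rests on 6 arrays. Leaving out each array in turn gave 2 to 29 members with pIC over PBS and 0 to 26 with ATRA+pIC over ATRA, with medians of 0.43 to 0.47 and 0.25 to 0.41. The median ran from -0.09 to -0.04 for ATRA over PBS, from -0.25 to -0.12 for ATRA+pIC over pIC and from -0.19 to -0.04 for the interaction, and these 3 contrasts had 0 called members in every alternative run. No member fell in any of them. No label says what the replicate number stands for, so whether the arrays were paired is not known. Deviations from the group means correlated at -0.109 to 0.098 in the 15 same-number pairs of arrays, with 0 over 0.1. In 30 other pairs they correlated at -0.143 to 0.114. Deviations within groups of so few arrays are tied to each other, so these values cannot show whether arrays were paired. Psma5 and Psmb11 are dim, which limits what their differences show.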
